A study of Mus musculus with 2 samples.

Results

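Nuclear oxidative phosphorylation genes were taken as every gene symbol that starts with Nduf, Sdh, Uqcr, Cox or Atp5 and has at least 100 unique molecular identifiers (UMIs, each counting 1 captured RNA molecule) over both libraries. Of 106 gene identifiers with such a symbol, 102 reached that number, out of 31053 genes in the tables. They comprised 36 subunits of complex I, 4 of complex II, 8 of complex III, 16 of complex IV, 15 of complex V and 23 genes classed as assembly factors. The cells were live resident immune cells of adult mouse lung, sorted as positive for CD45 and negative for a CD45 antibody that had been injected into the blood shortly before death (CD45IV-). Both groups carried the same alleles, Gli1creERT and Hhipflo/flox. One group was injected with oil and the other with tamoxifen, which activates the creERT recombinase in cells that transcribe Gli1, so that the floxed Hhip alleles can be recombined there. Each group was 1 droplet library (10x Single Cell 3' v3), and the labels give neither the number of animals nor the time after injection. Gli1 is known as a gene of Hedgehog-responding mesenchymal cells, which the sort was meant to remove. The sorted cells hardly held either gene: Gli1 had 9 UMIs in each library and Hhip had 40 in oil and 29 in tamoxifen, so these tables check neither recombination nor its cell of origin.

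Oxidative phosphorylation passes electrons from NADH through complex I, or from succinate through complex II, to complex III and then complex IV, where oxygen is reduced. The protons pumped on the way drive complex V, the ATP synthase. Complexes I, III, IV and V combine nuclear-encoded subunits with subunits encoded by the mitochondrial genome (symbols starting with mt-), while complex II is nuclear only. In the lung, alveolar macrophages are known to depend on mitochondrial respiration for clearing surfactant lipid. Several subunits of complex IV have a widely used form and a form restricted to some tissues, and these pairs are described separately.

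Promoter sequences are shown for 4 members that differ in 2 factor motifs long tied to respiratory genes. These members were chosen with their transcript levels known, and no relation between motif and level was tested. RefSeq promoters (GRCm38.p6, from 250 bases before to 50 bases after a RefSeq start of the gene) were matched for 85 of the 102 members. The 10-base palindromic core of the NRF1 motif, whose letters are the capitals of the Atp5g2 promoter, was present for 7 of the 85 members, or 8.24%, against 1.07% of the 27025 genes of the table. The members holding it were Atp5g2, Atp5k, Cox6a1, Ndufa11, Ndufaf4, Ndufaf5 and Uqcrc1. The ETS motif (CCGGAAG, either strand) that GABPA can bind was present for 26 of the 85, or 30.6%, against 9.93% of those genes. A gene with several promoters in the table counts once, and if any of them matches. No base of the printed matches is shared by both motifs, a match is a description of the window, and binding was not measured. In the sequences, written 5' to 3' on the gene's strand, capitals mark a match to either motif. Cox6a1 (chr5:115348909-115349208, minus strand) holds 1 match of each, Atp5g2 (chr15:102670998-102671297, minus strand) holds the NRF1 motif, Cox6b1 (chr7:30626065-30626364, minus strand) holds the ETS motif, and Cox6b2 (chr7:4753045-4753344, minus strand), the testis form of the same subunit as Cox6b1, holds neither.
Cox6a1: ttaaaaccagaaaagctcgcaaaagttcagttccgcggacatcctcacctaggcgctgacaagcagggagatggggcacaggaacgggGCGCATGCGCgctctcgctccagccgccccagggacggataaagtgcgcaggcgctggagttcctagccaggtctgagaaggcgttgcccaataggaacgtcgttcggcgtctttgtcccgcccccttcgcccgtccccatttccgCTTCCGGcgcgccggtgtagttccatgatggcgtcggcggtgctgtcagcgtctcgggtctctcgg
Atp5g2: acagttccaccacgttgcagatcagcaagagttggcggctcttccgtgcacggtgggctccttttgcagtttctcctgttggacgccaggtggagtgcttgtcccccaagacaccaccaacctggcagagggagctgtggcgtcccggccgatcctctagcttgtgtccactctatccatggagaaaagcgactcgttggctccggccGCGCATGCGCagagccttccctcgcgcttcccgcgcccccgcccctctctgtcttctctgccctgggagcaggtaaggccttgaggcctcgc
Cox6b1: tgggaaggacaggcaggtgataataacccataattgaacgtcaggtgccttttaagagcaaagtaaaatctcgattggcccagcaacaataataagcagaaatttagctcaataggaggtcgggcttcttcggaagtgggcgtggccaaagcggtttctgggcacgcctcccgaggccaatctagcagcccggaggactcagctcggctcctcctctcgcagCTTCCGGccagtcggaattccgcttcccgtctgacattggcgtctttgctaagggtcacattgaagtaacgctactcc
Cox6b2: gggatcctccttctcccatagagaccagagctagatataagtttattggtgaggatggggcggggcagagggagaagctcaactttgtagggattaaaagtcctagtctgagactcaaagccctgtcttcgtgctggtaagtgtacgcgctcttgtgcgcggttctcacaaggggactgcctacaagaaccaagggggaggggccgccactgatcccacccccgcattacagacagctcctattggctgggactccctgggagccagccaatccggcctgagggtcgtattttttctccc

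4 identifiers stayed outside the 100 UMI limit: a second Atp5o identifier (ENSMUSG00000116933) with 0 UMIs, Cox8c with 1, Cox7b2 with 4 and Cox8b with 54. The lowest members inside it were Ndufa4l2 with 251, Cox6a2 with 319, Cox4i2 with 452 and Atp5s with 460. In the GENCODE M21 annotation of GRCm38, 49 of the 102 genes overlap another annotated gene, 14 of them on the same strand, so some of their UMIs may belong to a neighbour. 3 members lie on chromosome X.

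Barcodes were kept with at least 300 genes and under 10% mt- UMIs, which left 6794 cells with 53146681 UMIs in oil and 10138 cells with 79853762 UMIs in tamoxifen, at medians of 6360.5 and 6431 UMIs per cell. The mitochondrial limit was passed by 31.9% of the oil barcodes and 20.7% of the tamoxifen barcodes. The 2 libraries shared 41 barcodes. Cells were assigned to 7 gates by the UMIs of a few genes, and the gates overlap: 2011 oil cells (29.6%) and 2357 tamoxifen cells (23.2%) were in more than 1 gate. Against markers that the gates did not use, the alveolar macrophage, C1q macrophage and cDC1 gates led in their own genes. T markers summed to 1550.5 and 1576 CPM (UMIs per 1000000 UMIs) in the T gate, where neutrophil markers went from 372 to 3147 and alveolar macrophage markers from 506 to 1864. B markers summed to 4252 and 3762 in the B gate, under plasma cell markers at 17944 and 11630.1. The Mgl2/Cd209a gate, meant for cDC2, did not lead in its own markers: C1q macrophage markers summed to 2415 and 2691 CPM there and cDC2 markers to 2065 and 1676, and 1059 of its 2035 oil cells and 879 of its 1659 tamoxifen cells were also in the C1q gate. The Il1rl1 gate, meant for ILC2, held cDC2 markers at 2326 and 2312 CPM and ILC2 markers at 770 and 558. The last 2 gates are therefore called by their genes, T and B stand only for the gates on Cd3 genes and Cd79a, and sums are also given for cells in 1 gate only. Female cells (sexes were read from Xist and Y-linked UMIs) made up 54.7% of the oil and 60.7% of the tamoxifen cells, and male cells 20.8% and 16.6%. No test between oil and tamoxifen was possible with 1 library each, and every interval is a 95% interval of counting error alone.

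By CPM, the 102 genes together took up a similar part of the transcriptome in every gate, highest in the T gate and lowest in the B gate. In oil, the summed level was 18148 CPM in the T gate, 17409.7 in the alveolar macrophage gate, 16894 in the Il1rl1 gate, 16776 in the cDC1 gate, 16422 in the Mgl2/Cd209a gate, 15584 in the C1q gate and 14712 in the B gate. In tamoxifen, the order was T with 19315 CPM, C1q with 18588, alveolar macrophage with 18415, Mgl2/Cd209a with 17752, Il1rl1 with 17638, cDC1 with 17549 and B with 15929.6. T was thus at the top and B at the bottom in both libraries, 23.4% and 21.3% apart, and the C1q gate moved from the second lowest to the second highest. The place of B depends on the measure. Of UMIs without mt- and ribosomal protein genes, C1q had the lowest share in oil (1.97%, B 2.02%). In tamoxifen it was the alveolar macrophage gate (2.23%, B 2.30%). The median share per cell was lowest in C1q in oil (1.37%, B 1.57%) and in Il1rl1 in tamoxifen (1.609%, B 1.614%). T was highest by each of these measures. The intervals of neighbouring gates overlapped for Il1rl1 and cDC1 in oil, and in tamoxifen for Il1rl1 with both Mgl2/Cd209a and cDC1. Among cells in 1 gate only, the T gate led in oil with 18934 CPM and the C1q gate in tamoxifen with 22083, and B was lowest in oil with 14598 and in tamoxifen with 15449.

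**Figure D1:**
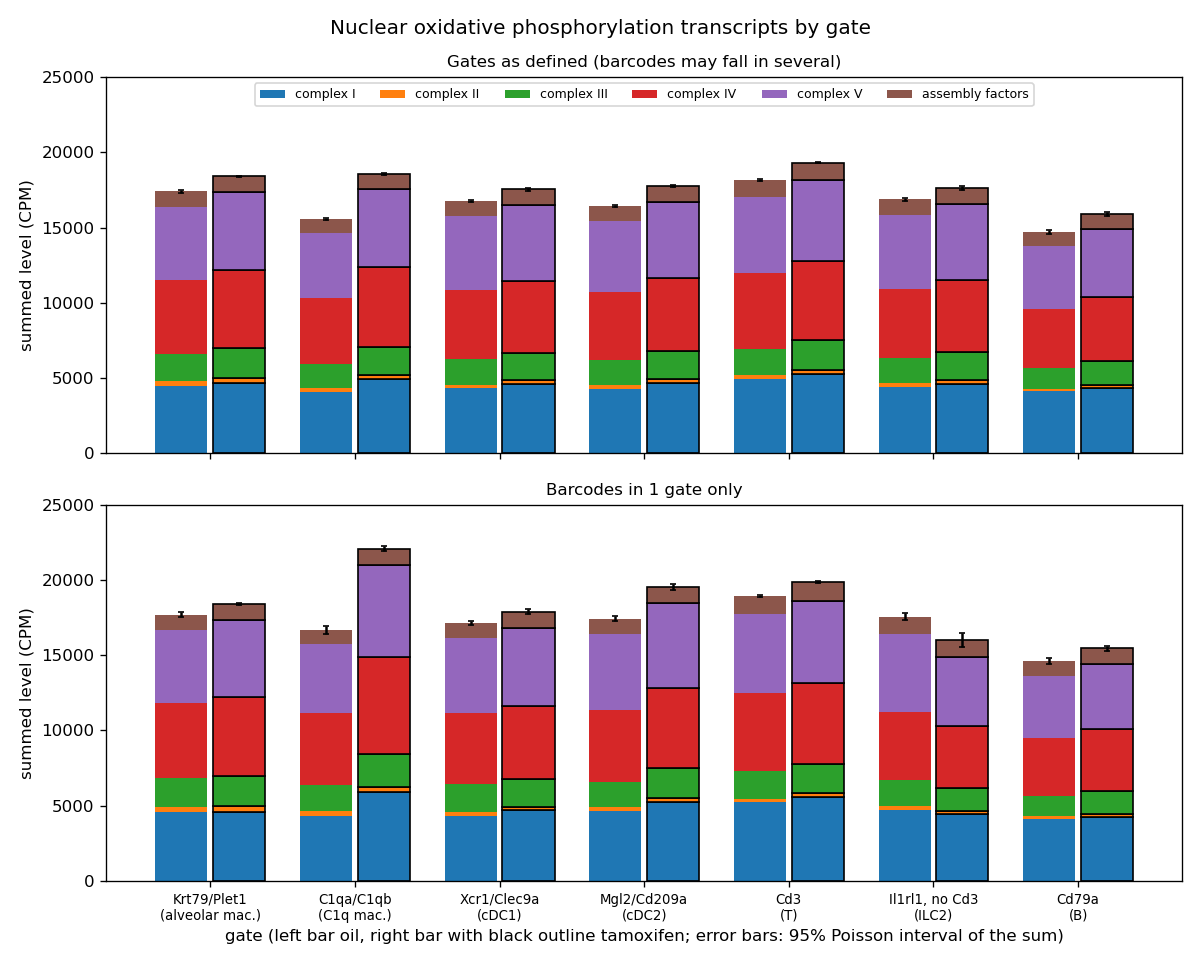
Summed level in CPM of the nuclear oxidative phosphorylation genes, stacked by complex, for each gate in oil (left bar) and tamoxifen (right bar, black outline), with the gates as defined above and cells in 1 gate only below. Error bars are 95% Poisson intervals of the sum, and the C1q gate shows the widest step between libraries, from 15584 to 18588 CPM.

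Between the libraries, the summed level was higher in tamoxifen in all 7 gates as defined, by most in the C1q gate. The whole tamoxifen library also held more neutrophil and alveolar macrophage transcripts. Neutrophil markers were higher in tamoxifen in each of the 7 gates, at 4.55 to 372 CPM in oil and 32.4 to 3147 in tamoxifen, and alveolar macrophage markers in the 6 gates other than their own at 60.1 to 506 and 429 to 1864. No correction was made for them, and their part in the sums was not tested. Over all kept cells, it was 17178.5 CPM in oil and 18727 in tamoxifen, 9.01% higher, a log2 ratio of 0.12 (0.12 to 0.13). In the C1q gate it was 15584 in oil and 18588 in tamoxifen, 19.3% higher, a log2 ratio of 0.25 (0.25 to 0.26). Other gates held 90.3% of the C1q gate's oil cells and 79.8% of its tamoxifen cells, and its median depth was 8554 and 9666.5 UMIs. The part of either in the result was not tested beyond the values for 1 gate only. The other gates had smaller log2 ratios: alveolar macrophage 0.081, cDC1 0.065, Mgl2/Cd209a 0.11, T 0.090, Il1rl1 0.062 and B 0.11. These steps are small, and the scale matters for them. The median log2 ratio of genes with at least 50 UMIs in each library was itself above 0, by 0.082 over all kept cells, 0.12 in alveolar macrophages, 0.076 in C1q, 0.027 in cDC1, 0.055 in Mgl2/Cd209a, 0.056 in T, 0.074 in Il1rl1 and 0.12 in B. Scaled to that median, the log2 ratio of the sum was 0.042 over all kept cells, 0.18 in C1q, 0.057 in Mgl2/Cd209a, 0.038 in cDC1 and 0.034 in T, and it was below 0 in alveolar macrophages (-0.041), Il1rl1 (-0.012) and B (-0.0080). The intervals of the last 2 span 0.

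In cells of 1 gate only, the C1q step was larger, from 16667 CPM (118 cells) to 22083 CPM (255 cells), 32.5% higher and a log2 ratio of 0.41 (0.38 to 0.43). Their own marker level differed too: the C1q macrophage markers summed to 9343 CPM in these oil cells and 5922 in these tamoxifen cells, and the part of this difference in the result was not tested. The Mgl2/Cd209a gate stood at 0.16, alveolar macrophages at 0.058, cDC1 at 0.062, T at 0.070 and B at 0.082. The Il1rl1 gate had the opposite direction, from 17571 to 16019 CPM, a log2 ratio of -0.13 (-0.18 to -0.087) over 255 and 77 cells. Within these Il1rl1 cells the erythroid markers summed to 3393 CPM in oil and 45 in tamoxifen and the neutrophil markers to 23 and 3584, and their part in the result was not tested.

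The step was above 0 in both sexes in every gate but B. In female cells the log2 ratio was 0.11 over all kept cells and 0.26 in the C1q gate, and in male cells 0.18 and 0.25. Female cells of the B gate went from 14373 CPM (179 cells) to 16436 (294 cells), a log2 ratio of 0.19. Male cells of the B gate went from 16573 CPM (21 cells) to 14303 (49 cells), a log2 ratio of -0.21 (-0.27 to -0.16). The male alveolar macrophage value, 0.24, was above the female value, 0.070. Counting error is the only error these intervals hold, and animals were not labelled.

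**Figure D2:**
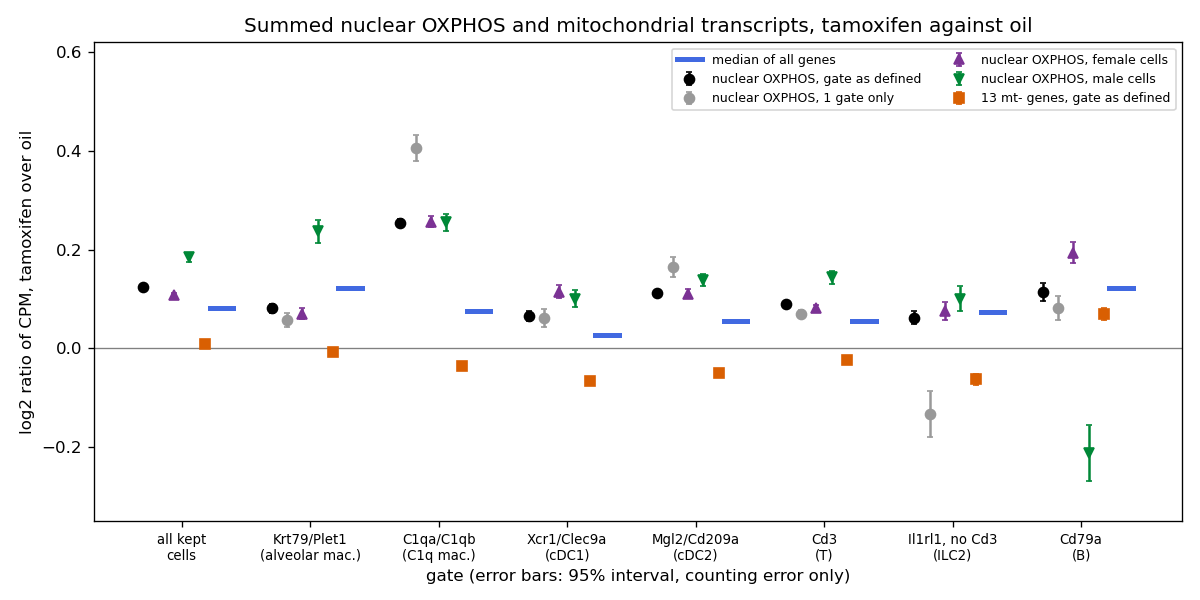
Log2 ratio of tamoxifen over oil of the summed level in each gate, for the gate as defined, cells in 1 gate only, female cells and male cells, with the 13 mt- genes and the median of genes with at least 50 UMIs in each library beside them. Error bars are 95% exact intervals of counting error, and the C1q gate is the one where all 4 values of the nuclear genes lie at or above 0.25, while the mt- genes lie at -0.037.

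All 5 complexes shared the higher level. Over all kept cells, complex I went from 4591 CPM in oil to 4981 in tamoxifen (log2 ratio 0.12), complex II from 245 to 275 (0.17), complex III from 1715 to 1935 (0.17), complex IV from 4744 to 5195 (0.13) and complex V from 4836 to 5228 (0.11). The genes classed as assembly factors, of which Cox7a2l was the most abundant at 326 and 341 CPM, went from 1046 to 1113 (0.090). In the C1q gate the log2 ratios were 0.26 for complex I, 0.20 for complex II, 0.26 for complex III, 0.27 for complex IV, 0.26 for complex V and 0.14 for the assembly factors. The intervals of complex II (0.13 to 0.27) and of the assembly factors (0.11 to 0.18) overlapped, and differences between the classes were not tested. Of the single members over all kept cells, 32 of 36 of complex I were higher in tamoxifen, 3 of 4 of complex II, 8 of 8 of complex III, 12 of 16 of complex IV, 14 of 15 of complex V and 20 of 23 assembly factors. That is 89 of 102 in all, where 59.7% of all 13909 genes tested were higher in tamoxifen.

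The 13 mt- genes, which encode the other subunits of the same complexes, had no such step over all kept cells or in 6 of the 7 gates. They summed to 32393 CPM in oil and 32566 in tamoxifen over all kept cells, a log2 ratio of 0.0077. In the C1q gate they were at 31748 and 30947 (-0.037), in alveolar macrophages at 36220.4 and 36042 (-0.0071), in cDC1 at 29585 and 28238 (-0.067), and in the B gate, where they were higher in tamoxifen, at 32195 and 33779.9 (0.069). In B gate cells of no other gate they had nearly the same step as the nuclear genes, 0.080 beside 0.082. Those of complex IV were higher over all kept cells, with a log2 ratio of 0.058 (0.054 to 0.062). Nuclear UMIs per mt- UMI were 0.530 in oil and 0.575 in tamoxifen over all kept cells, 0.491 and 0.601 in C1q, 0.481 and 0.511 in alveolar macrophages, 0.538 and 0.582 in T, and 0.457 and 0.472 in B. The ratio of nuclear to mt- UMIs was therefore higher in tamoxifen in each gate as defined. In cells of 1 gate only, the mt- genes of the C1q gate went from 35183 to 30476 CPM, a log2 ratio of -0.21. The limit of 10% on mt- UMIs cuts the upper end of the mt- distribution, and the libraries lost different shares of barcodes to it. In the barcodes it removed, the nuclear genes summed to 6638 CPM in oil and 7969.6 in tamoxifen, under the sums of the kept cells. As a further yardstick, cytosolic ribosomal protein genes had log2 ratios of -0.17 in alveolar macrophages, 0.091 in C1q and 0.20 in B. Their ratio was 0.053 in cDC1, 0.060 in Mgl2/Cd209a, 0.013 in T and -0.048 in Il1rl1. In cells of 1 gate only it was above 0 in each gate, with 0.093 in alveolar macrophages and 0.070 in Il1rl1. In single cells, the nuclear genes made up a median 1.37% of a C1q gate cell's UMIs in oil and 1.66% in tamoxifen, 1.74% and 1.86% in T, and 1.67% and 1.75% in alveolar macrophages.

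Member by member, the C1q gate stood furthest from the genes at large. There 93 of 100 members with at least 50 UMIs were higher in tamoxifen, where 61.3% of all genes tested in the gate were, and the median log2 ratio was 0.26 for the members and 0.078 for all genes. The interval lay above 0 for 78 of the 100, where it did for 25.9% of all genes, and below 0 for 0, where it did for 12.5%. Intervals are wider for genes with fewer UMIs, and all genes include many with fewer UMIs than the members, so these interval shares are not like for like. Alveolar macrophages were at the other end, with 68 of 99 members higher, 65.1% of all genes, and medians of 0.060 for the members and 0.13 for all genes. The B gate was close to its background too, with 71 of 92 higher, 70.6% of all genes, and medians of 0.13 and 0.15. In between were cDC1 with 75 of 96 (57.8% of all genes), Mgl2/Cd209a with 89 of 100 (60.4%), T with 87 of 102 (59.8%) and Il1rl1 with 66 of 94 (56.4%). Outside the 7 gates, 2 smaller gates had wider gaps between the medians of members and of all genes than C1q. These medians were 0.48 and -0.093 in a neutrophil gate (27 and 121 cells) and 0.19 and -0.035 in an NK cell gate (139 and 56 cells). Cells in 1 gate only gave 84 of 88 in C1q (56.0%), with 20 higher by at least 1.5-fold (14.1% of all genes) and 2 lower by that much (8.82%), 22 of 81 in Il1rl1 (44.6%), 64 of 99 in alveolar macrophages (56.3%), 54 of 90 in cDC1 (44.6%), 76 of 90 in Mgl2/Cd209a (53.8%), 74 of 101 in T (50.2%) and 58 of 87 in B (58.8%).

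**Figure D3:**
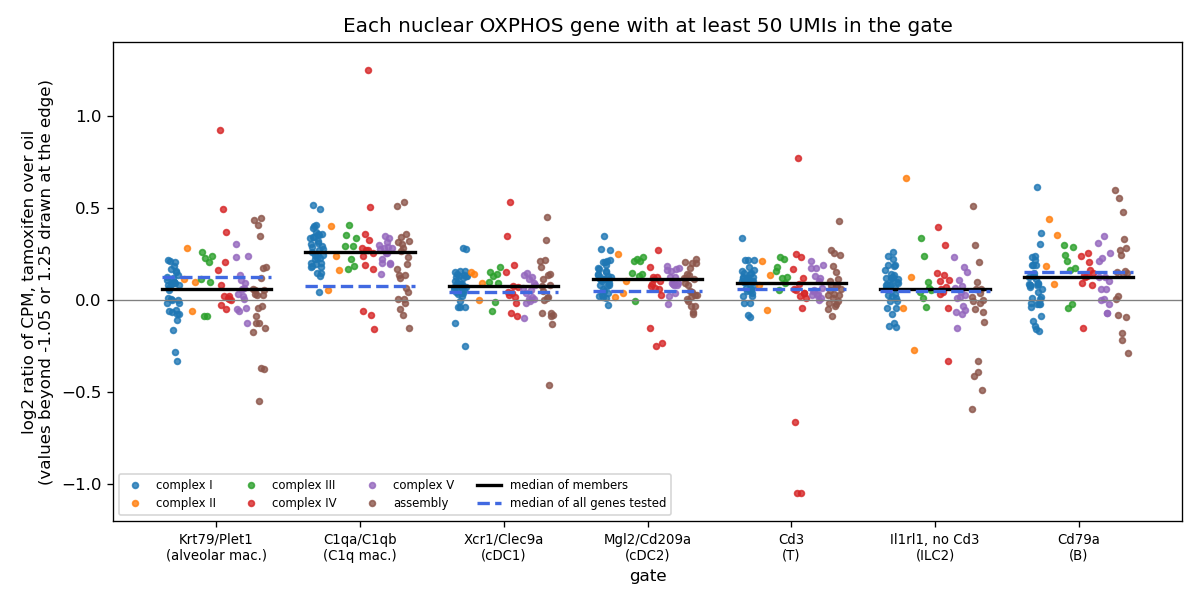
Log2 ratio of tamoxifen over oil of each member with at least 50 UMIs in a gate, coloured by complex, with the median of the members (solid black) and of all genes tested (dashed blue). Points beyond the axis limits are drawn at the edge, and the 2 medians lie furthest apart in the C1q gate, at 0.26 and 0.078.

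In the C1q gate, members with higher levels in tamoxifen came from every complex. Ndufa11, a membrane-arm subunit of complex I, was at 78.0 CPM in oil and 112 in tamoxifen, a log2 ratio of 0.52 (0.40 to 0.64). Cox5a, a nuclear subunit of complex IV, was at 298 and 424 (0.51), Ndufb6 at 55.5 and 78.1 (0.49) and Uqcrq, a subunit of complex III, at 253 and 335 (0.41). Sdhc, 1 of the 2 membrane anchors of complex II, was at 39.3 and 52.0 CPM (0.40). Cox4i1 was at 697 and 848 CPM (0.28). The 7 tested members that were not higher were Ndufa4, Ndufaf5, Sdhaf3, Cox6b2, Cox7a1, Cox10 and Cox15, of which Ndufaf5, Sdhaf3, Cox10 and Cox15 are assembly factors. Ndufa11, Cox5a, Ndufb6, Ndufaf5, Sdhaf3 and Cox15 fall outside the rule for named genes and were picked out after their values were seen.

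Some members were higher in tamoxifen in every gate. Of 91 members with enough UMIs in all 7 gates, 37 (40.7%) were higher in tamoxifen in each of them, where 19.6% of 6901 genes were, and 0 were lower in each, where 3.52% of genes were. The gates share their libraries and many cells, so these are not 7 separate observations. In cells of 1 gate only, 9 of 80 members were higher in each gate (4.71% of all genes) and 0 lower in each (1.91%). The 9 were Uqcrh, Ndufa3, Ndufa12, Cox4i1, Uqcrfs1, Ndufa6, Atp5g2, Ndufa7 and Cox7a2l. Their complexes differ, and Ndufa3, Ndufa12, Uqcrfs1, Ndufa6 and Ndufa7 are named here after their values were seen.

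In 4 of the 91 members the interval was above 0 in each of the 7 gates as defined, as it was for 2.99% of 6901 genes, and the 4 were singled out for that. Here too, all genes include many with fewer UMIs than the members and so with wider intervals. Cox5a (chr9:57521274-57532426, plus strand, GRCm38) was at 423 CPM in oil and 548 in tamoxifen in alveolar macrophages, 298 and 424 in C1q, 248 and 283 in cDC1, 296 and 357 in Mgl2/Cd209a, 355 and 422 in T, 298 and 366 in Il1rl1, and 239 and 276 in B. Its tamoxifen value was the higher one each time, with log2 ratios from 0.19 in cDC1 to 0.51 in C1q. Cox4i1, the common form of the largest nuclear subunit of complex IV, had log2 ratios from 0.15 to 0.28 at levels of 514 to 848 CPM. Uqcrfs1 (chr13:30540308-30545362, minus strand), the Rieske iron-sulphur protein of complex III, had log2 ratios from 0.16 to 0.36 at levels of 82.0 to 135 CPM. Atp5g2 (chr15:102662864-102672352, minus strand), whose promoter with an NRF1 motif is printed above, encodes the ring subunit c of the ATP synthase and had log2 ratios from 0.11 to 0.28. The printed window lies inside these coordinates, because it was placed by a RefSeq start that differs from the start given here.

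A few abundant members went the other way. Ndufa4, a subunit now placed in complex IV, was at 374 CPM in oil and 365 in tamoxifen over all kept cells, at 309 and 278 in Mgl2/Cd209a (log2 ratio -0.15), at 299 and 237 in Il1rl1 (-0.33) and at 452 and 408 in B (-0.15). It was at 313 and 318 in alveolar macrophages (0.021), with an interval that spans 0. Ndufa13, a complex I subunit, was at 189 and 169 CPM in alveolar macrophages (-0.16) and at 353 and 334 in T (-0.080). Ndufb11, a complex I subunit on chromosome X, was at 211 and 191 CPM over all kept cells, a log2 ratio of -0.14 (-0.18 to -0.11). It was at 159 and 131 CPM in alveolar macrophages, and it was picked out after its values were seen. The interval of Ndufa4 lay below 0 in Mgl2/Cd209a, T, Il1rl1 and B, while the summed level of the members was higher in tamoxifen in those gates.

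Differences of at least 1.5-fold were few. Over all kept cells, 1 of 102 members was higher by that much and 1 lower, where 9.45% and 9.99% of all genes were. By gate, 1 of 99 members was higher by that much in alveolar macrophages and 0 lower (10.2% and 8.13% of all genes), 1 and 0 of 100 in C1q (6.26% and 4.25%), 0 and 0 of 96 in cDC1 (7.30% and 2.67%), 0 and 0 of 100 in Mgl2/Cd209a (4.82% and 3.10%), 1 and 3 of 102 in T (7.98% and 5.44%), 1 and 1 of 94 in Il1rl1 (7.51% and 5.98%), and 2 and 0 of 92 in B (11.6% and 2.56%). The shares over all genes include many genes with fewer UMIs than the members, and no test of the difference was made. Of the 10 gate and member pairs, 6 were higher and 4 lower in tamoxifen, and 6 of the 10 concern the rare forms Cox6b2, Cox6a2, Cox4i2 and Ndufa4l2. The other 4 concern Sdhc, Cox10 and Ndufa10, which are used in most tissues. Sdhc (chr1:171127165-171150603, minus strand) was at 30.8 CPM in oil and 48.7 in tamoxifen in the Il1rl1 gate, a log2 ratio of 0.66 (0.37 to 0.95), and higher in tamoxifen in each of the other gates as well. Cox10, the heme a farnesyltransferase needed to build complex IV, was at 15.1 and 10.0 CPM in Il1rl1 (-0.59) and at 6.55 and 9.92 in B (0.60, with an interval from -0.26 to 1.52). Ndufa10, a matrix subunit of complex I, was at 39.7 and 60.8 CPM in B (0.62, interval 0.28 to 0.97).

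Most single members stayed under a ratio of 2 between gates, but no such range was computed for all genes. Over the 91 members with enough UMIs in every gate, the median ratio of the highest to the lowest gate (the smaller of the ratios in the 2 libraries) was 1.35, and 80 of them stayed under a ratio of 2 in both libraries. The highest gate was the same in both libraries for 60 members and the lowest for 56. The alveolar macrophage gate was highest in both libraries for 27 members, the T gate for 26, and the B gate lowest in both for 39. Complex II as a whole was highest in the alveolar macrophage gate, at 305 CPM in oil and 328 in tamoxifen, and was lowest in B with 160 and 186, while the remaining gates held 240 to 248 in oil and 252 to 286 in tamoxifen. In tamoxifen cells of 1 gate only, the C1q gate came first with 366 CPM, before alveolar macrophages with 355, and their intervals overlapped. These orders describe 2 libraries and carry no error between animals.

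The 6 members with the widest range between gates were Sdhaf1, Sdhc, Ndufs1, Cox10, Ndufv3 and Sdhaf4, 3 of which belong to complex II or its assembly. Sdhaf1 (chr7:30321406-30323895, minus strand), which helps to insert iron-sulphur clusters into complex II, had its highest level in oil in T with 34.2 CPM and in tamoxifen in B with 37.3, and its lowest in C1q with 11.7 and in alveolar macrophages with 13.2. Sdhc was highest in another gate, with 63.5 and 77.4 CPM in alveolar macrophages and 22.3 and 30.3 in B. Ndufs1 (chr1:63143596-63176833, minus strand), the largest core subunit of complex I, was at 38.1 and 41.5 CPM in alveolar macrophages and at 17.1 and 19.1 in cDC1. Ndufv3, an accessory subunit of the NADH-binding module, was at 197 and 195 CPM in T and at 94.3 and 95.6 in cDC1. Sdhaf4, another complex II assembly factor, was lowest in cDC1 with 16.3 and 17.3 CPM and highest in B with 33.1 in oil and in Il1rl1 with 35.1 in tamoxifen. Cox10 was at 20.6 and 20.3 CPM in T, its highest gate, and lowest in B in oil (6.55) and in C1q in tamoxifen (9.50). Sdhc and the assembly factors Sdhaf1 and Sdhaf4 thus had their highest levels in different gates.

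**Figure D4:**
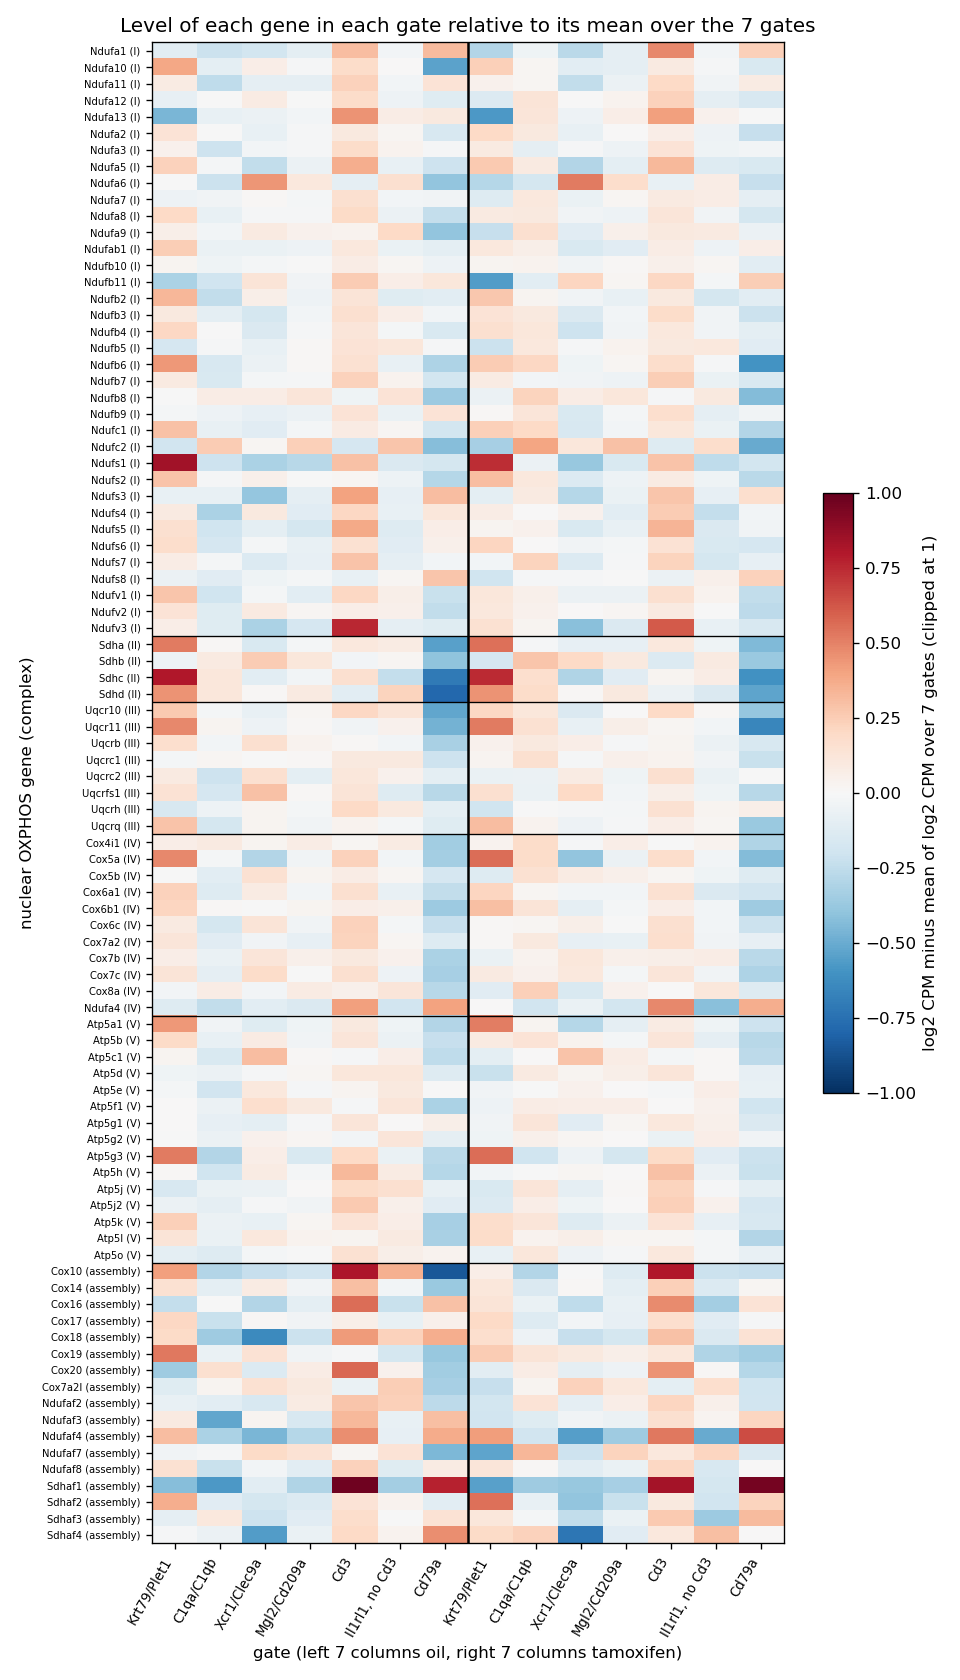
Heat map of 91 members by gate and library, as log2 CPM minus the member's mean over the 7 gates of that library, limited to 1 either way. The highest gate is the same in both libraries for 60 members, and B is lowest in both for 39.

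The 2 most abundant members of each class are given over all kept cells. For complex I they were Ndufa2 with 271 CPM in oil and 310.0 in tamoxifen and Ndufa13 with 290 and 270, for complex II Sdhb with 87.3 and 87.2 and Sdha with 71.7 and 80.9, and for complex III Uqcrh with 532 and 570 and Uqcrq with 291 and 353. For complex IV they were Cox8a with 689 and 725 and Cox4i1 with 673 and 766, for complex V Atp5e with 735 and 766 and Atp5h with 525 and 546, and for the assembly factors Cox7a2l with 326 and 341 and the copper chaperone Cox17 with 227 and 240. Both complex II genes, of the complex with no mitochondrially encoded part, were thus counted at a lower level than the leading genes of the other classes. A 3' tag counts a molecule once whatever its length, so these levels are per molecule.

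Cox6b2, the testis form of a complex IV subunit, was the tissue-restricted member with the highest counts, and its share of cells was highest in alveolar macrophages among the 7 gates. It lies at chr7:4751792-4753094 (minus strand). In the alveolar macrophage gate it had 224 UMIs in oil (35.9 CPM) and 1867 in tamoxifen (68.1 CPM), a log2 ratio of 0.92 (0.72 to 1.13). In cells of that gate only it was at 56.2 and 82.7 CPM (0.56). Its common partner Cox6b1 was at 448 and 517 CPM in the same gate. Cells thinned to 1500 UMIs held a Cox6b2 UMI in 27 of 468 alveolar macrophages in oil, 5.77% (3.84% to 8.28%), and in 229 of 2451 in tamoxifen, 9.34% (8.22% to 10.6%). Without thinning the shares were 27.1% and 39.6%. In the B gate, 0 of 229 and 0 of 410 thinned cells held one, which allows up to 1.31% and 0.732% at that thinned depth, and without thinning 4 of 233 (1.72%) and 7 of 415 (1.69%) did. Cells of a fibroblast gate also held it, in 20.8% and 19.1% of thinned cells. In the T gate the gene was at 9.48 and 16.2 CPM, but 398 of the 573 tamoxifen UMIs were in cells that also passed the alveolar macrophage gate, against 32 of 198 in oil, and T gate cells in no other gate had 3.23 and 3.07 CPM.

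Cox4i2 and Ndufa4l2, both known as hypoxia-linked forms, came from few cells. Cox4i2 (chr2:152754173-152765037, plus strand) had 215 UMIs in oil and 208 in tamoxifen, and 15 cells in each library with at least 3 of them held 157 (73.0%) and 163 (78.4%). Those same cells held 348 of 682 Gucy1a1 UMIs in oil and 302 of 628 in tamoxifen, 148 of 186 and 148 of 163 Postn UMIs, and 62 of 108 and 71 of 111 Pdgfrb UMIs, genes known from pericytes and other mural cells and chosen after the values were seen. Ndufa4l2 (chr10:127514967-127517154, plus strand, overlapping Shmt2 on the other strand) had 116 and 125 UMIs, of which 10 cells in each library held 74 and 83. In the T gate, Cox4i2 went from 103 UMIs in oil (4.93 CPM) to 21 (0.593 CPM), a log2 ratio of -3.06, and Ndufa4l2 from 61 (2.92 CPM) to 15 (0.424 CPM), -2.78. In male cells alone the log2 ratio of Ndufa4l2 was 0.033. Of these oil UMIs, 61 of 103 and 47 of 61 were in cells that also passed an endothelial gate. Cells with genes of both types thus held most of the oil UMIs, and whether they are doublets was not tested. Cox4i1, the common form, was at 662 and 744 CPM in T.

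Cox6a2, the muscle form of another complex IV subunit (chr7:128205435-128206387, minus strand, overlapping Itgad on the other strand), had 127 UMIs in oil and 180 in tamoxifen. Cells with at least 2 UMIs of Siglech, a marker of plasmacytoid dendritic cells, numbered 4 and 5 among those with at least 3 Cox6a2 UMIs and held 77 (60.6%) and 83 (46.1%) of them. The same cells held 78 of the 78 kept UMIs of Klk1, another marker of that type, in oil and 143 of 147 in tamoxifen. In the C1q gate Cox6a2 had 8 UMIs in 5 oil cells and 52 UMIs in 23 tamoxifen cells, a log2 ratio of 2.52 (1.43 to 3.80), and 20 of the 52 were in 1 cell with Siglech. In the T gate it had 42 UMIs in 4 oil cells, 28 of them in 1 cell, and 45 UMIs in 19 tamoxifen cells, a log2 ratio of -0.66. T gate cells in no other gate had 1 Cox6a2 UMI in oil and 24 in tamoxifen, the opposite direction. The common form Cox6a1, whose promoter is printed above, was at 256 and 257 CPM in alveolar macrophages.

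In the remaining pairs the restricted forms were rare. Cox7a1, the muscle form, was found in 0.641% of thinned alveolar macrophages in oil and 1.26% in tamoxifen, an order that turned at 3000 UMIs per cell (2.46% and 1.89%), where Cox7a2 was at 309 and 309.5 CPM. Cox7b2, Cox8b and Cox8c stayed under the limit given above. The 3 genes for the same mature subunit c of the ATP synthase were all transcribed, and Atp5g3 was at 198 CPM in oil and 234 in tamoxifen in alveolar macrophages, against 113 to 159 and 137 to 182 in the other gates.

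**Figure D5:**
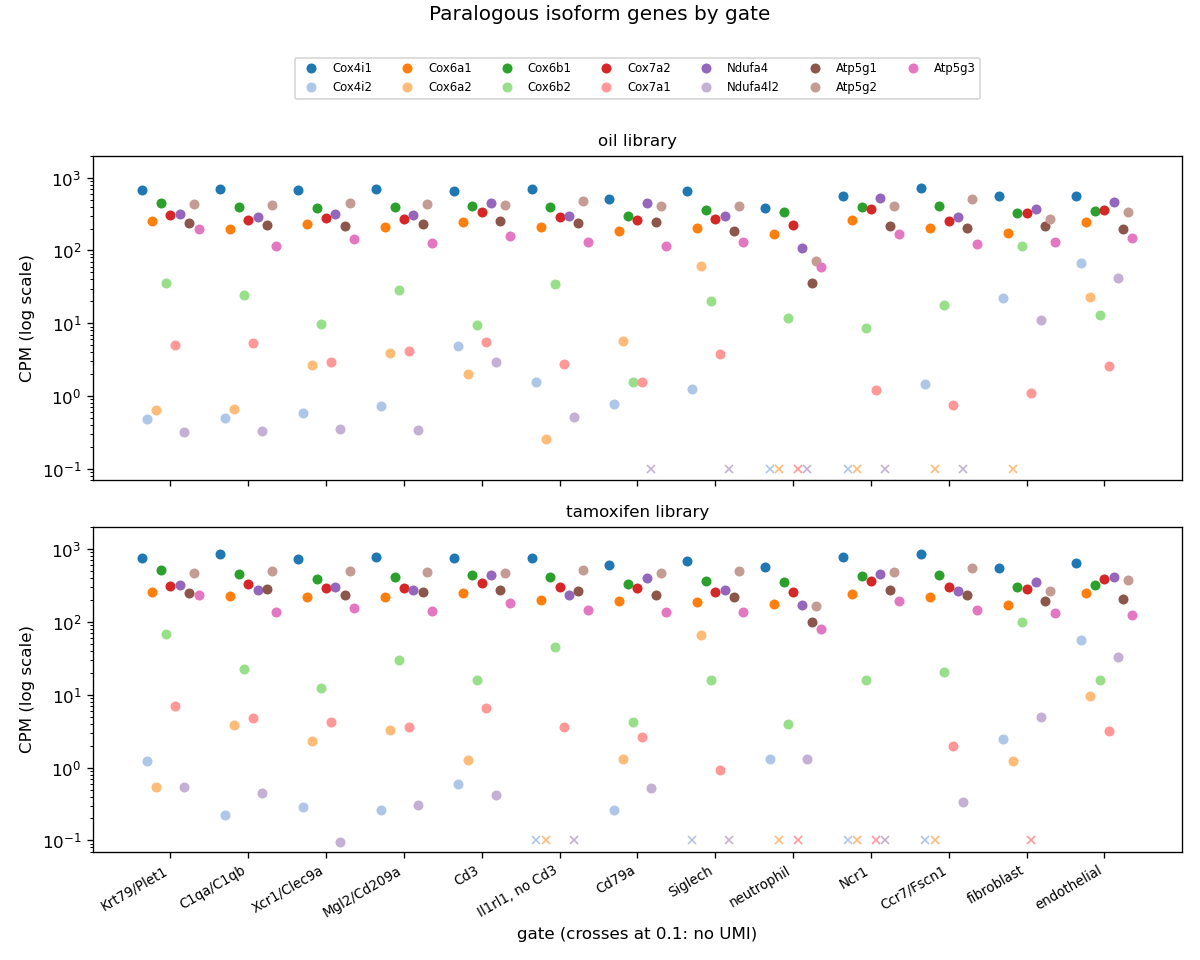
Level in CPM (log axis) of the paralogous members by gate, in oil and tamoxifen, with a cross at 0.1 where no UMI was counted. Cox6b2 in alveolar macrophages goes from 35.9 to 68.1 CPM, and Cox4i2 in the T gate from 4.93 to 0.593 CPM.

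A list of 34 other oxidative phosphorylation genes is given beside the members. It holds cytochrome c, cytochrome c1, Usmg5 and Atpif1 of the ATP synthase, and assembly factors with other symbols. Over all kept cells, 26 of 33 with enough UMIs were higher in tamoxifen, against 59.7% of all genes, and in the C1q gate 22 of 30, against 61.3%, with a median log2 ratio of 0.21. In alveolar macrophages 20 of 32 were higher, against 65.1% of all genes, and in B 18 of 22, against 70.6%. Bcs1l and Atpaf2, assembly factors of complexes III and V, had C1q log2 ratios of 0.62 and 0.66, and Timmdc1, a complex I assembly factor, was at 5.60 and 10.7 CPM in alveolar macrophages (0.93). Of the 32 tested in alveolar macrophages, 2 were higher and 1 lower by at least 1.5-fold (10.2% and 8.13% of all genes). The interval lay above 0 for 3 of the 32 and below 0 for 5, against 3411 and 1636 of all 11138 genes tested there. Of 12 regulators of these genes, 9 of the 11 with enough UMIs were higher in tamoxifen over all kept cells, against 59.7% of all genes. Within gates the count was 10 of 11 in alveolar macrophages (65.1% of all genes), 6 of 11 in C1q (61.3%), 5 of 10 in cDC1 (57.8%), 6 of 11 in Mgl2/Cd209a (60.4%), 6 of 11 in T (59.8%), 6 of 10 in Il1rl1 (56.4%) and 5 of 7 in B (70.6%). By at least 1.5-fold, 3 of the 11 were higher over all kept cells and 0 lower (9.45% and 9.99% of all genes). In C1q, 2 of 11 were higher and 1 lower (6.26% and 4.25%), and in cDC1 2 and 0 of 10 (7.30% and 2.67%). Mgl2/Cd209a had 2 and 1 of 11 (4.82% and 3.10%), T 1 and 0 of 11 (7.98% and 5.44%) and Il1rl1 1 and 0 of 10 (7.51% and 5.98%). None was past it in alveolar macrophages (10.2% and 8.13%) or B (11.6% and 2.56%). Ppargc1b, a coactivator of mitochondrial genes, was at 6.51 and 11.3 CPM (log2 ratio 0.80), and at 6.48 and 10.8 in C1q (0.73). Esrra, a nuclear receptor it works with, was at 8.50 and 13.9 CPM over all kept cells (0.71). Polrmt, the mitochondrial RNA polymerase, went the other way in the C1q gate, at 4.21 and 1.86 CPM (-1.18). The alveolar macrophage gate held 476 kept oil cells and 2507 kept tamoxifen cells, so values over all kept cells also move with that share, and its part in them was not tested.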

How the data were processed

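Gene by cell UMI counts were deposited as raw count matrices, 1 per library, made with Cell Ranger 5.0.1 on GRCm38 (mm10), per the submitters' processing notes. The sources used here do not name the annotation release. Members, gates and gene lists were chosen with earlier results of these data known. Barcodes with at least 300 genes and under 10% mt- UMIs were kept and assigned to gates: Krt79 plus Plet1 at least 2 UMIs (alveolar macrophage), C1qa plus C1qb at least 5 (C1q macrophage), Xcr1 plus Clec9a at least 2 (cDC1), Mgl2 plus Cd209a at least 1 (meant for cDC2), Cd3d, Cd3e and Cd3g at least 1 (T), Il1rl1 at least 1 without Cd3 genes (meant for ILC2) and Cd79a at least 2 (B). Counts were summed over the cells of a gate and divided by the gate's total (CPM). The authors' counts were not corrected for free RNA, and no doublet caller was run; cells in 1 gate only are the alternative.

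Intervals are exact 95% Poisson intervals of a count, exact conditional intervals of a ratio of 2 counts and Clopper-Pearson intervals of a share of cells; they cover counting error only. Each group is a single library, so nothing was tested between groups. Members were tested against a fold of 1.5 with at least 50 UMIs over both libraries. Shares of cells were taken after thinning each cell to 1500 UMIs. Genes are named by these rules: the 2 most abundant members per class, paralog pairs, the 6 members with the widest range over gates, up to 4 members per gate and direction past the fold, members next to the 100 UMI limit and the listed pathway genes and regulators. The ratio script was tested on simulated data. Scripts used Python 3.11.15, NumPy 2.4.6, SciPy 1.17.1, pandas 2.3.3 and matplotlib 3.10.9. The alternatives are 15 other settings of filter, gate, scaling and thinning.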

Additional observations from a re-analysis of the deposited data

Results flagged for a closer look

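The summed level of the nuclear oxidative phosphorylation genes went in opposite directions in the sexes in the B gate: the log2 ratio of tamoxifen over oil was 0.19 in female cells (179 in oil, 294 in tamoxifen) and -0.21 in male cells (21 and 49). In oil, male cells of the B gate were above female ones (16573 against 14373 CPM), and in tamoxifen below them (14303 against 16436 CPM). The difference between the sexes was not tested.

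In a fibroblast gate (78 and 72 cells), the log2 ratio was -0.058 (-0.092 to -0.023), while it was above 0 in the 7 immune gates. This difference was not tested either.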

How the results depend on the processing

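Each group was 1 library, so no value has an error between animals, and counting intervals are narrow at this depth. Steps under about 0.1 on the log2 scale are of the size of the shift of the all-gene median. No paired analysis was possible because each group holds a single library. In the text that follows, values are log2 ratios of the summed level (tamoxifen over oil) unless another quantity is named.

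The C1q gate stayed above 0 in each alternative, from 0.18 to 0.41. Scaling to the median of ratios gave 0.042 over all kept cells, -0.041 in alveolar macrophages, 0.18 in C1q, 0.038 in cDC1, 0.057 in Mgl2/Cd209a, 0.034 in T, -0.012 in Il1rl1 and -0.0080 in B, with the mt- genes at -0.075 over all kept cells and -0.053 in B. Cells in 1 gate only gave 0.058 in alveolar macrophages, 0.41 in C1q, 0.16 in Mgl2/Cd209a, 0.070 in T, -0.13 in Il1rl1 and 0.082 in B. There, 24 gate and member pairs were higher and 15 lower by 1.5-fold. C1q held 20 and 2 of these, from 88 members (14.1% and 8.82% of all genes). Il1rl1 held 2 and 8, from 81 members, where 288 and 474 of 3316 genes passed. The ratio of highest to lowest gate was 1.30 in oil and 1.43 in tamoxifen, and T values were -0.072 for Cox6b2 and 3.93 for Cox6a2. With CPM computed without mt- and ribosomal protein genes, the values were 0.11 over all kept cells, 0.050 in alveolar macrophages, 0.27 in C1q, 0.079 in cDC1, 0.13 in Mgl2/Cd209a, 0.046 in Il1rl1 and 0.19 in B, and the tamoxifen ratio of highest to lowest gate was 1.17.

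A mitochondrial limit of 25% gave 0.15 over all kept cells, 0.094 in alveolar macrophages, 0.12 in Mgl2/Cd209a, 0.12 in T and 0.093 in Il1rl1, an oil ratio of highest to lowest gate of 1.21, and -0.10 for the mt- genes over all kept cells. A limit of 5% gave 0.11, 0.070 in alveolar macrophages, 0.23 in C1q, 0.099 in Mgl2/Cd209a and 0.074 in T, ratios of 1.27 and 1.22, and mt- values of 0.081 in alveolar macrophages and 0.019 in C1q. At least 1000 genes per cell gave 0.12 over all kept cells and 0.080 in T. Leaving out cycling cells gave 0.13 over all kept cells, 0.29 in C1q and 0.14 in Mgl2/Cd209a. Doubled gate thresholds gave 0.070 in alveolar macrophages, 0.069 in T and ratios of 1.26 and 1.23.

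Female cells gave 0.11 over all kept cells, 0.070 in alveolar macrophages, 0.11 in cDC1, 0.082 in T and 0.19 in B, 12 pairs higher by 1.5-fold, and ratios of 1.28 and 1.18. Male cells gave 0.18 over all kept cells, 0.24 in alveolar macrophages, 0.10 in cDC1, 0.14 in Mgl2/Cd209a, 0.14 in T, 0.10 in Il1rl1 and -0.21 in B, 12 pairs higher and 9 lower, and ratios of 1.22 and 1.38. In male cells the mt- genes were at -0.016 over all kept cells, 0.00030 in alveolar macrophages, 0.013 in C1q and -0.44 in B, Cox6b2 at -0.89 and Ndufa4l2 at 0.033 in T, and Cox10 at 0.25 in Il1rl1. A minimum of 20 UMIs per gene gave 11 pairs higher, and a minimum of 200 gave 0 lower. The pair counts for female cells, male cells and these minimums have no share over all genes beside them. They are therefore not read as a result about the members. Without thinning, the share of cells with a UMI was 7.12% for Cox4i2 in oil endothelial cells, and in alveolar macrophages 27.1% and 39.6% for Cox6b2 and 5.46% and 6.82% for Cox7a1. Thinned to 3000 UMIs, the last 2 genes stood at 9.62% and 18.5%, and at 2.46% and 1.89%, which turned the order of the libraries for Cox7a1. Beyond the settings themselves, the cause of these moves was not tested.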

Other observations

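Cells in cycle, gated on proliferation genes, were 9.17% of the kept oil cells and 7.56% of the kept tamoxifen cells and had more of the nuclear genes than the other cells of their library. Over all kept cells, the log2 ratio of cycling over other cells was 0.16 in oil and 0.17 in tamoxifen, while the mt- genes were at -0.11 and -0.17. The T gate showed 0.20 and 0.24 and the C1q gate 0.30 and 0.14, but cDC1, which had the most cycling cells of the 7 gates (34.9% and 29.4%), showed 0.030 in oil and 0.028 in tamoxifen.

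Rarer cells in the sort covered a wider range than the 7 gates. The neutrophil gate had the lowest summed level of all, 9957 CPM in oil (27 cells) and 12459 in tamoxifen (121 cells), a log2 ratio of 0.32 (0.22 to 0.43), but the median share of a cell's UMIs was 0.976% in oil and 0.969% in tamoxifen. NK cells stood at 17985 and 20342 CPM (139 and 56 cells), mature dendritic cells at 16678 and 18112.5, and plasma cells at 13030.3 and 15315. A gate on Siglech stood at 15226 and 16189 CPM (58 and 75 cells), and 74.1% and 68% of its cells were in more than 1 of the 7 gates. Only 4 oil and 5 tamoxifen cells, described with Cox6a2, held 78 of 78 and 143 of 147 Klk1 UMIs. The Siglech gate is therefore called by its gene. In endothelial cells the levels were 17095 and 16888 CPM, a log2 ratio of -0.018 with an interval from -0.044 to 0.0086.

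Within the single cells of the 7 gates, the nuclear and the mt- share of UMIs had a weak negative correlation. Their Spearman rank correlation over the cells of a gate was from -0.33 in T to -0.14 in B in oil and from -0.26 in cDC1 to -0.085 in B in tamoxifen. It was above 0 in the neutrophil gate (0.41 and 0.26), the plasma cell gate (0.39 and 0.14) and the endothelial gate (0.20 and 0.31). Both shares divide by the same total, so part of this is shared by construction, and the cells of a library are not replicates.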
